A study of Mus musculus and Rattus norvegicus with 24 samples.

Results

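Transplanted and cultured mouse stem cell-derived cardiomyocytes were compared here, which are 16 of the 24 single-cell libraries of the series. The 16 were taken by the names of their columns, 8 for transplanted and 8 for cultured cells, and the letters A to H only name cells. Both groups carried the genotype given as mESCIsl1-Cre; Rosa-RFP; aMHC-GFP, so all 16 cells derived from mouse embryonic stem cells with an Isl1-Cre driver, a Rosa-RFP reporter and an aMHC-GFP reporter. After differentiation, the transplanted cells were injected into the heart of a neonatal rat and recovered after 30 days, and the cultured cells were kept in a dish for 30 days. The remaining 8 libraries are wild-type adult rat ventricular cardiomyocytes and appear below as levels alone, since they are of another species counted on the mouse build. Cells were isolated singly, by sorting or by hand-picking, and the labels used here give no method, animal or culture for a given cell. Each group therefore counted as 1 sample, no test between them was possible, and intervals cover counting error of reads alone. Genes of contraction and of oxidative metabolism were set aside, and the account is of other genes.

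Cardiomyocytes that differentiate from stem cells in a dish keep features of the fetal heart, while cells of the postnatal heart replace many widely expressed proteins with muscle-restricted relatives encoded by other genes. Such pairs exist among tubulins, elongation factors, intermediate filaments and glycolytic enzymes, and the exchange runs beside the better known exchange of myosins and troponins. Mitochondria of the maturing heart also need their own ribosomes, import channels and inner membrane scaffold, which are built from nuclear genes.

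Total counts ran from 88796 to 344224 per transplanted cell and from 16099 to 60789 per cultured cell, so an absent gene was bounded more tightly in the transplanted group. A floor of 3 counts over a group was 2.30 CPM (counts per 1000000) in transplanted and 14.6 CPM in cultured cells. The 100 most abundant genes took a median of 68.8% of the counts of a transplanted cell and 44.0% of those of a cultured cell. Between 11 and 15 of 18 cardiomyocyte markers had counts in each transplanted cell. In cultured cells A to H the number was 14, 6, 10, 8, 8, 2, 1 and 2, so the label was not borne out by these markers in cultured cells F, G and H. Cultured cells B, C, D and E stood apart in another way, with 2.51 to 5.48% of their counts on Rpph1, the RNA of ribonuclease P, against at most 0.0574% in the other cultured cells and 0 counts in the transplanted group. A ratio whose 4-fold call or direction changes without either set of cells is given both ways. Fibroblast markers held at most 0.209% of the counts of a cultured cell and at most 0.000511% of those of a transplanted cell, and markers of endothelial, smooth muscle, leukocyte, neural and endoderm cells held at most 0.0539% of any cell. Pluripotency markers held at most 0.152% of the counts of a cultured cell and 0.0372% of those of a transplanted cell. Many of these markers are not among the listed genes and could have no count. Those listed were 8 of 12 for fibroblasts, 6 of 12 endothelial, 6 of 9 smooth muscle and 2 of 12 leukocyte. For neural cells they were 2 of 14, for endoderm 3 of 11 and for pluripotency 6 of 19. Low shares therefore do not exclude such cells.

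The groups shared few abundant genes outside the contractile and oxidative lists. Of 9595 listed genes, 2873 reached 100 CPM in at least 1 group sum, and 588 of them were at least 4-fold higher in transplanted cells (20.5%), while 1818 were at least 4-fold lower (63.3%) and 467 were neither. With TMM factors in place of total counts the same shares were 30.9% and 52.3%, and with median-of-ratios factors 29.5% and 53.6%. Contractile and oxidative genes made up 125 of the 588. Of the 2711 other genes, 463 were higher and 1804 were lower (17.1% and 66.5%). Of the 588 higher genes, 232 had no count in any cultured cell, and of the 1818 lower genes, 1349 had no count in any transplanted cell, so many ratios are bounds. The median log2 ratio of the 2873 genes was -6.63 with a pseudocount of 1 CPM and -5.53 with groups at 0 set to the floor.

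Exon length moved with the direction of a gene. Median union exon length was 2710.5 bp in the higher genes, 3356 bp in those that were neither and 6360 bp in the lower genes. Of genes up to 1000 bp, 49.1% were higher and 17.3% were lower, and of genes over 8000 bp, 5.48% were higher and 86.7% were lower. Without cultured cells B, C, D and E the corresponding shares were 36.1% and 22.95% for the shortest class and 8.58% and 80.3% for the longest. Without F, G and H they were 62.3% and 15.1%, and 6.39% and 86.8%. The part of length in the result for any gene group was not tested, so each group below is set beside all tested genes of the length class that holds its median exon length.

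**Figure D1:**
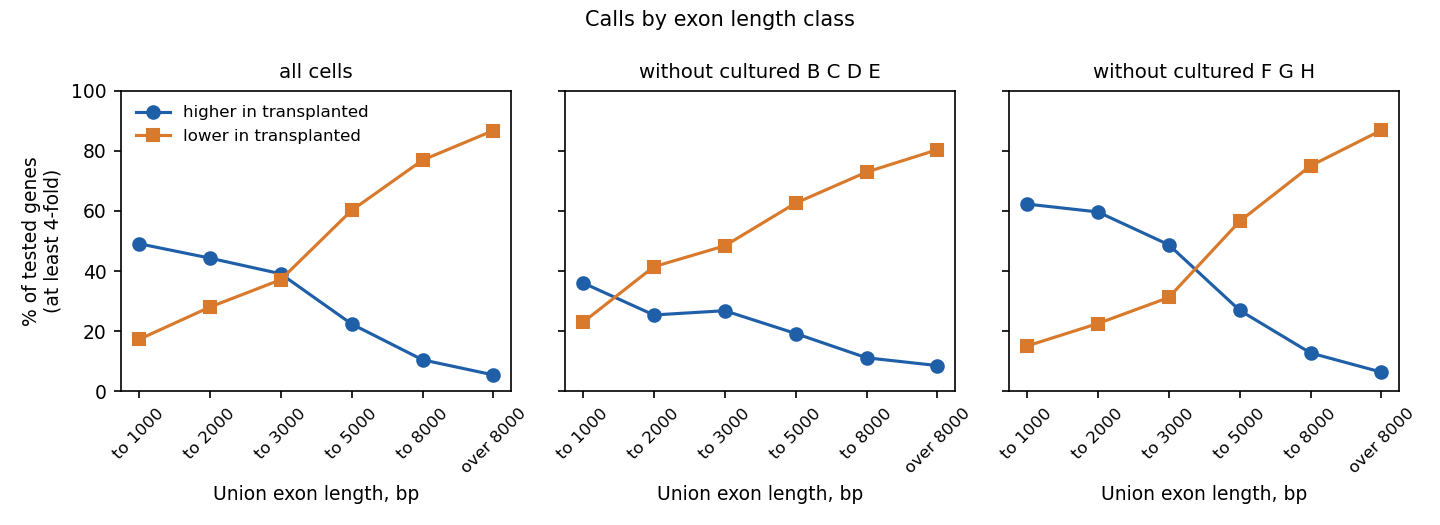
Share of tested genes (y, %) at least 4-fold higher (blue) or lower (orange) in transplanted cells, by union exon length class (x, bp), with all cells and without the cultured cells named above each panel. The share lower climbs from 17.3% in genes up to 1000 bp to 86.7% in genes over 8000 bp with all cells, and the same order holds in the other panels.

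In most pairs with enough counts, the form taken as muscle or adult held a larger share in transplanted than in cultured cells. Of 39 pairs of a muscle or adult form and a general form, 34 were listed and 21 had at least 10 counts in each group. The muscle form held a larger share of the pair's counts in transplanted cells in 16 of the 21 pairs, an equal share in 2 and a smaller share in 3. The median share was 99.3% in transplanted and 12.5% in cultured cells, and it stood at 96.5% in adult cells. In cultured cells the muscle or adult form still led its pair for Eif4a2, Pygm, Mpc2, Pgam2 and Fhl2. In transplanted cells the general form led in the pairs of Hspa2 and Prkar2a. In all 16 pairs the exact intervals of the groups did not overlap, and the same was true of 1 of the other pairs, glycogen phosphorylase, in the opposite direction. For Pgam2, at 100% against 97.6%, the difference rests on 1 count of Pgam1 in cultured cell A. Without that cell the cultured share was 100% as well. Without cultured cells F, G and H, 15 of 19 measurable pairs had the larger share in transplanted cells, and without B, C, D and E, 11 of 14.

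The same order was seen cell by cell. Taking each pair in each cell with counts of it, the muscle form held most of the counts in 79 of 101 cases among transplanted cells and in 17 of 80 cases among cultured cells. In every transplanted cell the pairs led by the muscle form outnumbered those led by the general form, from 9 against 5 in cell A to 8 against 1 in cell H. In every cultured cell the general forms outnumbered, and cell A, the cultured cell with the most markers, had 5 pairs led by the muscle form and 13 by the general form. The groups therefore did not overlap in this count, which has 21 pairs chosen with earlier results of these data known.

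**Figure D2:**
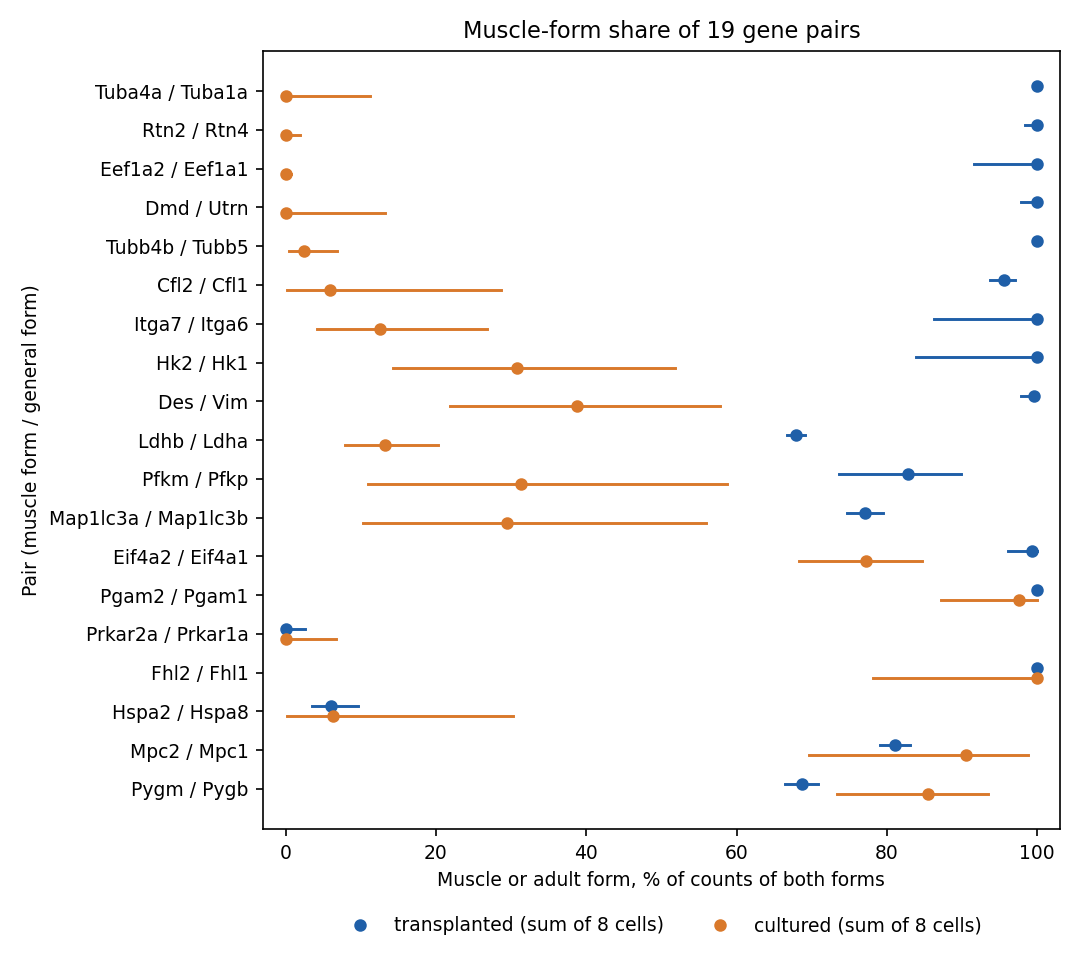
Muscle or adult form as a share of the counts of both forms (x, %) for 19 of the 21 measurable pairs (y), as sums over 8 transplanted (blue) and 8 cultured (orange) cells, with exact 95% intervals. In 14 of the pairs drawn the blue point lies to the right, while glycogen phosphorylase (Pygm / Pygb) has the reverse order.

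The muscle forms of tubulins had counts in most transplanted cells. Of their general forms, Tuba1a had counts in 2 cultured cells and Tubb5 in 5. Tuba4a, an alpha tubulin abundant in striated muscle (chr1:75214228-75219865), had 573, 31, 12, 651, 2109, 434, 30 and 2309 counts in transplanted cells A to H and 0 counts in every cultured cell, so the groups did not overlap and the level was at least 324-fold higher. Tuba1a, the alpha tubulin of dividing and neural cells (chr15:98949837-98953703), had the reverse distribution, with 14 counts in cultured cell A, 17 in F and 0 in all transplanted cells. In adult cells A to H, Tuba4a had 942, 557, 484, 1150, 808, 387, 225 and 391 counts. Exons of Tuba4a share 1379 bases with those of Stk16, a kinase gene on the other strand, and reads of these bases cannot be told apart, since the counting is not stated to use strand. Among beta tubulins, Tubb4b had 112, 146, 155, 0, 339, 5, 46 and 0 counts in transplanted cells and 3 in cultured cells, all in cell B, while Tubb5 had 20, 7, 0, 0, 0, 38, 54 and 4 counts in cultured cells and 0 in transplanted cells. The Tubb4b share was thus 100% (95% interval 99.5 to 100) against 2.38% (0.494 to 6.80), and in cultured cells 0% without cell B and 4.17% without cell G. Tubulin genes are close in sequence, and reads may be placed on a near copy.

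Lactate dehydrogenase was the pair with counts of both forms in the most cells, and it changed by share rather than by presence. Ldhb encodes the heart-type subunit, which favours the use of lactate (chr6:142490249-142507957), and Ldha the muscle-type subunit, which favours its formation (chr7:46841475-46855627). As the heart type, Ldhb was counted as the muscle or adult form of this pair. Ldhb had 190, 225, 0, 504, 762, 263, 130 and 1608 counts in transplanted cells A to H and 10, 3, 3, 0, 0, 1, 0 and 0 in cultured cells. Ldha had 78, 39, 216, 2, 0, 130, 218 and 1056 counts in transplanted cells and 53, 7, 5, 0, 5, 12, 30 and 0 in cultured cells. The Ldhb share was 67.9% (66.7 to 69.2) in transplanted and 13.2% (7.87 to 20.3) in cultured cells, and 70.7% in adult cells. Ldhb led in 6 of 8 transplanted cells, and Ldha led in all 6 cultured cells that had counts of the pair, so the order turned in transplanted cells C and G alone. As levels, Ldhb was 34.3-fold higher (95% interval 21.4 to 58.9) and Ldha was 2.46-fold higher (95% interval 2.03 to 3). Cultured cell A carried part of both ratios, and without it they were 75.2 and 4.22. Without transplanted cell H the Ldha ratio was 1.31. Ldha was 2.69-fold higher without cultured cells F, G and H, and 1.19-fold without B, C, D and E.

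The sequences before the start sites of these genes are shown because Tuba4a and Tuba1a were each confined to a single group of cells, and Ldhb and Ldha changed in share within cells. Each is the 250 bases before a RefSeq start site on build GRCm38.p6, read 5′ to 3′ on the gene's strand. Capitals mark matches on either strand to GGGCGG, the GC box, or to CTA and TAG with any 4 bases between them.
Tuba4a chr1:75219295-75219544, minus strand: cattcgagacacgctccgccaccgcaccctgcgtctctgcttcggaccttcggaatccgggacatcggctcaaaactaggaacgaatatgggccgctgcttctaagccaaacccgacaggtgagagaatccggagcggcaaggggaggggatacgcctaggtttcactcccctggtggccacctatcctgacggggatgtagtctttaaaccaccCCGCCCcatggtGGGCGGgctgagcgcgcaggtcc
Tuba1a chr15:98953502-98953751, minus strand: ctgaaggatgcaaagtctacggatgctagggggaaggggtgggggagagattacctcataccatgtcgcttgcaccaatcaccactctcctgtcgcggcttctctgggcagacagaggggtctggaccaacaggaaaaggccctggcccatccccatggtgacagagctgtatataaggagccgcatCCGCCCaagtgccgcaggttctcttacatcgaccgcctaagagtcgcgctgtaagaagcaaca
Ldhb chr6:142507958-142508207, minus strand: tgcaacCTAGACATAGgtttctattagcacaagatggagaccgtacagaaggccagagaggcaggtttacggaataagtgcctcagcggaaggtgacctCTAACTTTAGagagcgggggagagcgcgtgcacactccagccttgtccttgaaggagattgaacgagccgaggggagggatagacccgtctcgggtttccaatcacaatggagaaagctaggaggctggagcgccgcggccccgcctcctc
Ldha chr7:46845554-46845803, plus strand: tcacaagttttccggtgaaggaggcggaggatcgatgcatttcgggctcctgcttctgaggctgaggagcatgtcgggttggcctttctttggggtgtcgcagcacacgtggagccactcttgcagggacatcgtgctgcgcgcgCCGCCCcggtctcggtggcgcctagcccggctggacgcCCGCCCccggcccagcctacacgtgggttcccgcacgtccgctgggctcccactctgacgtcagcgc
Ldhb holds 2 matches to the CTA and TAG shape and none to GGGCGG. Tuba4a holds 2 matches to GGGCGG, Tuba1a 1 and the Ldha start shown 2, with none to the CTA and TAG shape. Another Ldha start, with its window at chr7:46846832-46847081, has no match to either. A promoter was found for 7679 of the 9595 listed genes. Over all 32851 promoters of this length the CTA and TAG shape occurs in 3.20% and GGGCGG in 32.7%. Among promoters of higher genes the shares were 4.20% and 52.2%, among those of lower genes 2.81% and 61.2%, and among those that were neither 2.50% and 58.8%. The strings TATAAA and CATTCC, the core of the muscle CAT box, occur in 6.04% and 13.8% of promoters of higher genes and in 6.37% and 9.97% of those of lower genes. These matches describe letters in a window and say nothing of a factor.

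Elongation factor, reticulon and dystrophin pairs had no cell with both forms. Eef1a1, the general form of the factor that brings aminoacyl-tRNA to the ribosome (chr9:78478449-78489151), had 64, 32, 13, 1, 6, 47, 135 and 180 counts across cultured cells A to H and 0 in transplanted cells, while Eef1a2, the form of adult muscle and neurons (chr2:181147653-181157014), had 17 counts in transplanted cell B, 25 in D and 0 elsewhere in both groups. Neither form had a count in the other 6 transplanted cells. In adult cells Eef1a1 had 127 counts, all in cell F, and Eef1a2 had 65. Rtn4, which shapes the endoplasmic reticulum (chr11:29692947-29744331), had 50, 0, 14, 10, 3, 10, 43 and 61 counts in cultured cells and 0 in transplanted cells, and its muscle relative Rtn2 had 183 counts in transplanted cell D, 38 in G and 0 elsewhere. Dmd, dystrophin, which ties the cytoskeleton to the membrane, had 78 counts in transplanted cell A, 90 in D and 0 elsewhere, and its relative Utrn had 3, 20 and 3 counts in cultured cells A, B and C. The muscle forms of these pairs therefore rest on 2 transplanted cells each.

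Actin-severing and filament pairs followed the same order. Cfl2, the muscle cofilin (chr12:54858809-54862877), had 57, 76, 0, 277, 0, 0, 196 and 0 counts in transplanted cells A to H and 1 count in cultured cells, in cell F, while Cfl1 had 28 counts in transplanted cell A and 3, 6, 0, 0, 1, 2, 4 and 0 in cultured cells. The Cfl2 share was 95.6% (93.7 to 97.0) against 5.88% (0.149 to 28.7), and in cultured cells 0% without cell F and 9.09% without cell B. Des, desmin, had 1, 81, 56, 19, 7, 91, 0 and 0 counts in transplanted cells, and its 12 counts in cultured cells included 11 in cell F, the cell that also had 14 of the 19 counts of Vim, vimentin. The Des share was 99.6% (97.8 to 100) against 38.7% (21.8 to 57.8), and 16.7% in cultured cells without cell F.

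In adhesion, hexokinase and phosphofructokinase pairs the muscle forms rested on fewer cells. Itga7, the laminin-binding integrin of muscle, had 25 counts in transplanted cell G and 5 in cultured cell B, while Itga6 had 0 counts in transplanted and 35 in cultured cells, 31 of them in cell B. Hexokinase pointed the same way from 21 counts of Hk2 in transplanted cell G alone, and phosphofructokinase from 75 counts of Pfkm in transplanted cell C, without which the Pfkm share was 11.1%. That is below the 31.2% of cultured cells, which in turn was 0% without cultured cell B. Map1lc3a, an LC3 form of the autophagosome, held 77.1% (74.7 to 79.4) of its pair in transplanted cells, but the cultured share came from 5 counts in cell G and 12 counts of Map1lc3b in cell C, and was 0% without the former and 100% without the latter.

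The exchange did not extend to all pairs. Pygm, muscle glycogen phosphorylase, held 68.7% (66.5 to 70.9) of its pair in transplanted and 85.5% (73.3 to 93.5) in cultured cells, where all 47 Pygm counts were in cell B and all 8 Pygb counts in cell C. That share was 0% without cultured cell B and 100% without C. The mitochondrial pyruvate carrier had Mpc2 at 81.1% in transplanted and 90.5% in cultured cells, with 1196 and 19 counts of Mpc2. Hspa2 held a like share of its pair with Hspa8 in both groups, 6.04% (3.49 to 9.62) and 6.25% (0.158 to 30.2), and rested on single cells. Without transplanted cell F, or without cultured cell C, the share was 0%. Fhl1 had no count in either group beside 348, 234, 2, 1090, 56, 362, 145 and 1517 counts of Fhl2, a cardiac LIM protein, in transplanted cells A to H. Prkar2a had no count beside 138 counts of Prkar1a in transplanted and 53 in cultured cells. Pgam2, the muscle phosphoglycerate mutase, led in both groups and differed in level instead, with 783, 455, 669, 839, 797, 989, 265 and 1501 counts in transplanted cells, 34 counts in cultured cell A, 6 in F and 0 in the other cultured cells. Pgam2 was 24.9-fold higher (95% interval 18.3 to 34.9), and 150-fold higher without cultured cell A, and the cells did not overlap in CPM.

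Beyond the pairs, genes were ranked outside the contractile and oxidative lists and without cytosolic ribosomal protein, mitochondrially encoded, Gm-numbered and Rik-named genes. Of these, 67 had counts in at least 6 transplanted cells and were at least 4-fold higher with cells weighted by depth and also equally. The 15 with the highest ratios include enzymes, membrane regulators, small chaperones and secreted proteins. Their order mixes bounds, set by the floor, with ratios from 1 or more counts, and is no order of size. Eno3, the muscle enolase of glycolysis (chr11:70657202-70662513), had 888, 157, 316, 465, 28, 4, 635 and 1370 counts in transplanted cells A to H and 0 in cultured cells, which makes it at least 204-fold higher. Fxyd1, phospholemman, a regulator of the sodium pump (chr7:31051678-31057199), had 64, 97, 262, 160, 153, 350, 174 and 719 counts and 0 in cultured cells, at least 104-fold higher. For Eno3, Fxyd1 and Tuba4a all 8 transplanted cells had counts, and no cultured cell did.

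S100a1, a calcium-binding protein of the cardiac sarcoplasmic reticulum and myofibril (chr3:90511034-90514392), had 565, 143, 140, 530, 267, 791, 429 and 1870 counts in transplanted cells A to H and 2, 1 and 6 counts in cultured cells A, F and G. Its CPM ranges did not overlap, and it was 83.3-fold higher (95% interval 43.8 to 182), or 222-fold higher without cultured cell G. Adprhl1, an ADP-ribosylhydrolase-like protein of the heart (chr8:13221663-13254162), had 119, 75, 6, 818, 0, 426, 56 and 1070 counts in transplanted cells and 0 in cultured cells, at least 136-fold higher, with transplanted cell E overlapping the cultured group at 0. Hspb6, the small heat shock protein HSP20, had 65, 192, 206, 220, 0, 406, 154 and 617 counts and 0 in cultured cells, at least 98.1-fold higher, and here too cell E was at 0. In adult cells the levels of S100a1, Adprhl1 and Hspb6 were 4268, 1626 and 855 CPM, against 3634, 1973 and 1428 CPM in transplanted cells.

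Secreted proteins stood among the highest ratios as well. Ptgds, a secreted synthase of prostaglandin D (chr2:25466709-25470046), had 301, 263, 0, 396, 301, 1316, 356 and 73 counts in transplanted cells A to H and 0 in cultured cells, at least 159-fold higher, or at least 101-fold higher without transplanted cell F. Cst3, cystatin C, an inhibitor of cysteine proteases, had 214, 38, 0, 267, 723, 487, 117 and 1117 counts in transplanted cells and 6 in cultured cells, 5 of them in cell C. Cst3 was 78.1-fold higher (95% interval 35.9 to 213), and 431-fold higher without cultured cell C. Both genes had counts in 7 of 8 transplanted cells and none in transplanted cell C. Their levels in adult cells were 1871 CPM for Ptgds and 1674 CPM for Cst3, and in transplanted cells 2307 and 2274 CPM. Of the list of secreted factors, 2 of 13 members were at least 4-fold higher and 9 lower (15.4% and 69.2%), near the 22.4% and 60.2% of their length class.

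The remaining ranked genes belong to metabolism, translation and traffic. Phyh, which starts the breakdown of branched fatty acids in peroxisomes, had 231, 2, 289, 247, 392, 219, 0 and 0 counts in transplanted cells A to H and 0 in cultured cells, at least 72.8-fold higher. Mrpl55, a mitochondrial ribosomal protein, had 259, 5, 0, 73, 0, 302, 79 and 316 counts and 0 in cultured cells, at least 54.5-fold higher, and Mlf1 had 107, 16, 395, 170, 174, 253, 0 and 0 counts and 0, at least 58.8-fold higher. These genes were each absent from 2 transplanted cells, which were G and H for Phyh and Mlf1 and C and E for Mrpl55. Use1, a SNARE protein of the endoplasmic reticulum, had 1705 counts in transplanted cells and 2 in cultured cell H. Aimp1, a scaffold of the tRNA synthetase complex, had 627 counts against 1, D8Ertd738e 886 against 1 and Stk16 496 against 1, each single count in cultured cell A. Of the exon bases of Stk16, 30.5% overlap Tuba4a, so its counts may include Tuba4a reads. Ratios from 1 or 2 counts are wide, 99.2 (17.7 to 3925) for Aimp1, for which transplanted cells A and D had no count. Without cultured cell A Aimp1 was at least 29.9-fold higher, D8Ertd738e at least 42.2-fold and Stk16 at least 23.7-fold, and without cultured cell H Use1 was at least 79.5-fold higher.

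**Figure D3:**
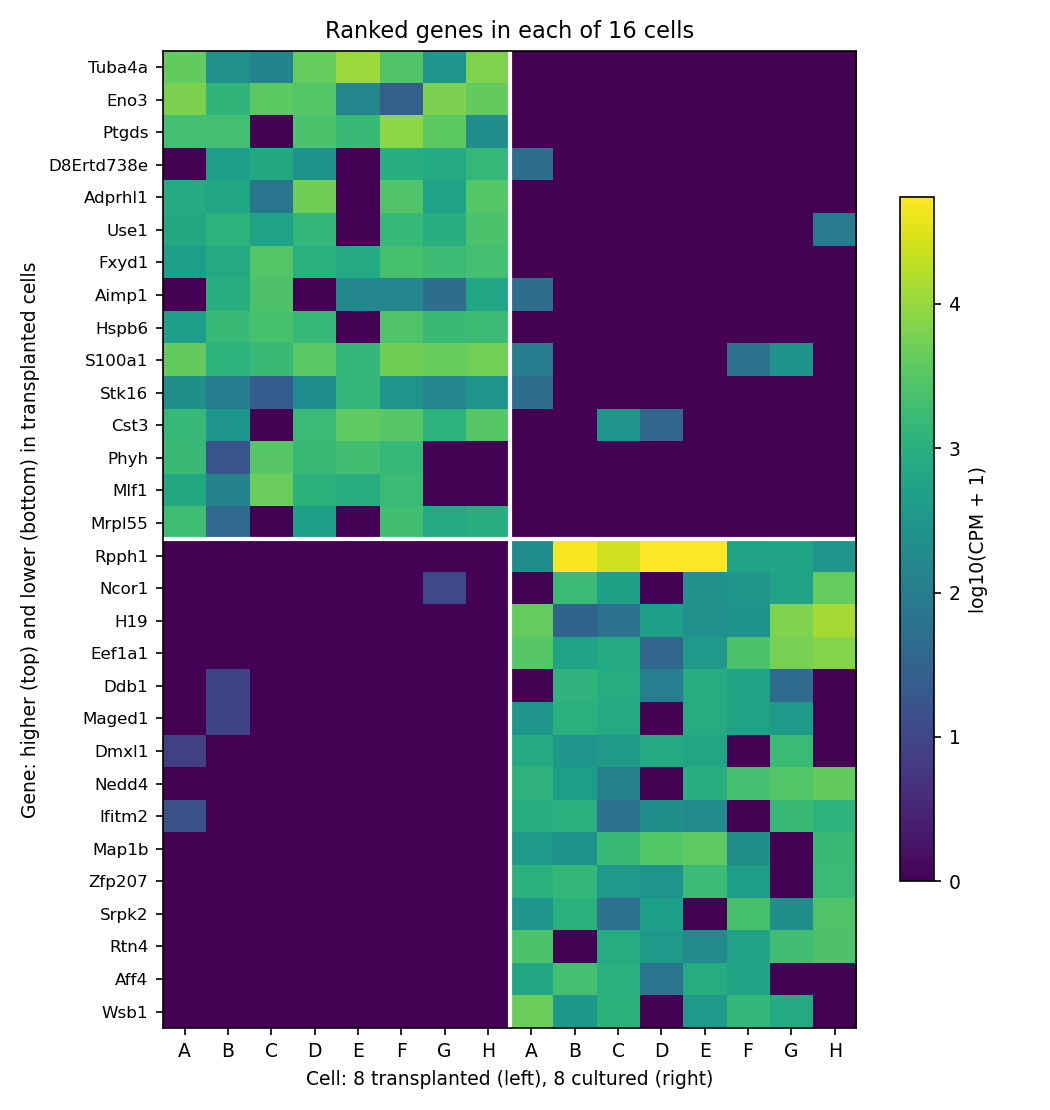
Level of each ranked gene (rows, 15 higher above and 15 lower below) in each transplanted and cultured cell (columns A to H), as log10(CPM + 1) by colour. The upper left and lower right blocks are filled and the other blocks are nearly empty, apart from single counts such as those of Aimp1 in cultured cell A, and the brightest cells are those of Rpph1 in cultured cells B, C, D and E.

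Among genes that were lower in transplanted cells, 86 met the same rule in the other direction, and the 15 with the highest ratios are described here. Nedd4, a ubiquitin ligase (chr9:72662346-72749852), had 24, 28, 2, 0, 15, 40, 68 and 96 counts across cultured cells A to H and 0 in transplanted cells, at least 575-fold lower. Map1b, a microtubule-associated protein of growing cells (chr13:99421446-99516540), had 7, 16, 26, 83, 58, 4, 0 and 37 counts in cultured cells and 0 in transplanted cells, at least 487-fold lower. Srpk2, a kinase of splicing factors (chr5:23503264-23684617), had 6, 65, 1, 13, 0, 43, 5 and 64 counts and 0, at least 415-fold lower. Each had counts in 7 of 8 cultured cells, and the cell at 0 differed, being D for Nedd4, G for Map1b and E for Srpk2.

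Zfp207, a zinc finger protein of the spindle, had 21, 85, 6, 8, 29, 8, 0 and 41 counts across cultured cells A to H and 0 in transplanted cells, at least 417-fold lower. Wsb1, a ubiquitin ligase receptor, had 95, 20, 18, 0, 6, 25, 18 and 0 counts and 0, at least 383-fold lower, or at least 203-fold lower without cultured cell A. Aff4, a scaffold of the transcription elongation machinery, had 12, 128, 17, 2, 14, 10, 0 and 0 counts and 0, at least 385-fold lower, or at least 164-fold lower without cultured cell B. Ncor1, a corepressor of nuclear receptors (chr11:62316426-62458541), had 0, 105, 8, 0, 4, 6, 12 and 99 counts in cultured cells and 1 count in transplanted cell G. Ddb1 and Maged1 had 116 and 113 counts in cultured cells and 1 each in transplanted cell B, Dmxl1 had 112 against 1 count in transplanted cell A, and Ifitm2 had 154 against 2 in transplanted cell A. Rpph1, H19 and Eef1a1 had counts in all 8 cultured cells and none in any transplanted cell, and their cells did not overlap.

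A gene without a transplanted count cannot turn higher when cultured cells are left out. The bounds below therefore only show how many cultured counts remain without the cells that stood apart. Without cultured cells F, G and H, Nedd4 was at least 212-fold, Map1b at least 585-fold, Srpk2 at least 262-fold and Zfp207 at least 458-fold lower in transplanted cells. Without B, C, D and E the bounds were 1167, 246, 604 and 358. Rpph1 was at least 12320-fold lower with all cells and at least 174-fold lower without B, C, D and E. Of the 588 higher genes, 558 were also higher without F, G and H and 427 without B, C, D and E, and of the 1818 lower genes, 1327 and 1000 were also lower. In the latter setting 2 of the lower genes were at least 4-fold higher.

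Nuclear genes for mitochondrial ribosomes and import had more members higher than lower in transplanted cells. Of 78 listed mitochondrial ribosomal proteins, 48 reached 100 CPM, and 25 of these were at least 4-fold higher and 4 lower (52.1% and 8.33%), against 39.1% and 37.1% of genes in their length class. Their median log2 ratio was 2.16, and 5.11 without cultured cell A. Mrpl42 had 57, 225, 234, 61, 355, 228, 448 and 361 counts in transplanted cells A to H, and 32 counts in cultured cell A and 8 in G. It was 7.79-fold higher (95% interval 5.7 to 10.9), 35.2-fold higher without cultured cell A, and 3.21-fold, under the 4-fold rule, without cultured cells B, C, D and E. Mrpl30 had 3, 74, 14, 208, 230, 192, 191 and 896 counts in transplanted cells and 21 in cultured cell A alone, 13.6-fold higher (95% interval 8.89 to 22.1). Without cultured cell A Mrpl30 was at least 86.2-fold higher. Mrpl33 was spread over cultured cells B to E with 25, 7, 38 and 8 counts and was 2.49-fold higher (95% interval 1.98 to 3.17), or 1.11-fold higher without transplanted cell H and 4.20-fold without cultured cell D. As all its cultured counts were in B, C, D and E, Mrpl33 was at least 26.6-fold higher without those cells. The list held 1.19 to 2.42% of the counts of a transplanted cell (median 1.37%) and 0.176 to 1.48% of those of a cultured cell (median 0.395%), with cultured cell A, at 1.48%, inside the transplanted range.

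Genes for mitochondrial import, outer membrane porins and organelle dynamics gave 18 higher and 2 lower of 31 (58.1% and 6.45%), against 22.4% and 60.2% of genes in their length class, with a median log2 ratio of 2.22. The median exon length of this list, 3055 bp, lies just above the 3000 bp that bounds the class, and the next shorter class had 39.1% higher and 37.1% lower. Vdac2, an outer membrane channel (chr14:21825238-21845879), had 0, 94, 297, 480, 320, 15, 0 and 369 counts in transplanted cells A to H and 10, 0, 1, 0, 1, 4, 3 and 1 in cultured cells. It was 12.5-fold higher (95% interval 8.04 to 20.5), and 22.5-fold higher without cultured cell A, but 2 transplanted cells were at 0 and the groups overlapped. Chchd3, which helps to hold cristae in shape, had 304, 211, 0, 167, 182, 419, 27 and 124 counts in transplanted cells and 1, 26 and 17 in cultured cells C, E and G, 5.16-fold higher (95% interval 3.82 to 7.13), or 11.6-fold higher without cultured cell E. Timm8b, a carrier of the intermembrane space, was 2.22-fold higher (95% interval 1.81 to 2.74), which is under the 4-fold rule, and 7.39-fold higher without cultured cell G. Its ratio was 5.68 without cultured cells F, G and H and 0.971 without B, C, D and E. The list had 21 higher and 2 lower of 29 without cultured cells F, G and H, and without B, C, D and E 11 higher and 5 lower of 32. For mitochondrial ribosomal proteins the counts were 26 and 3 of 46, and 19 and 5 of 47. In the same settings the length class of import genes had 26.9% higher and 56.5% lower, and 19.2% and 62.6%. That of mitochondrial ribosomal proteins had 48.7% and 31.2%, and 26.8% and 48.4%.

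**Figure D4:**
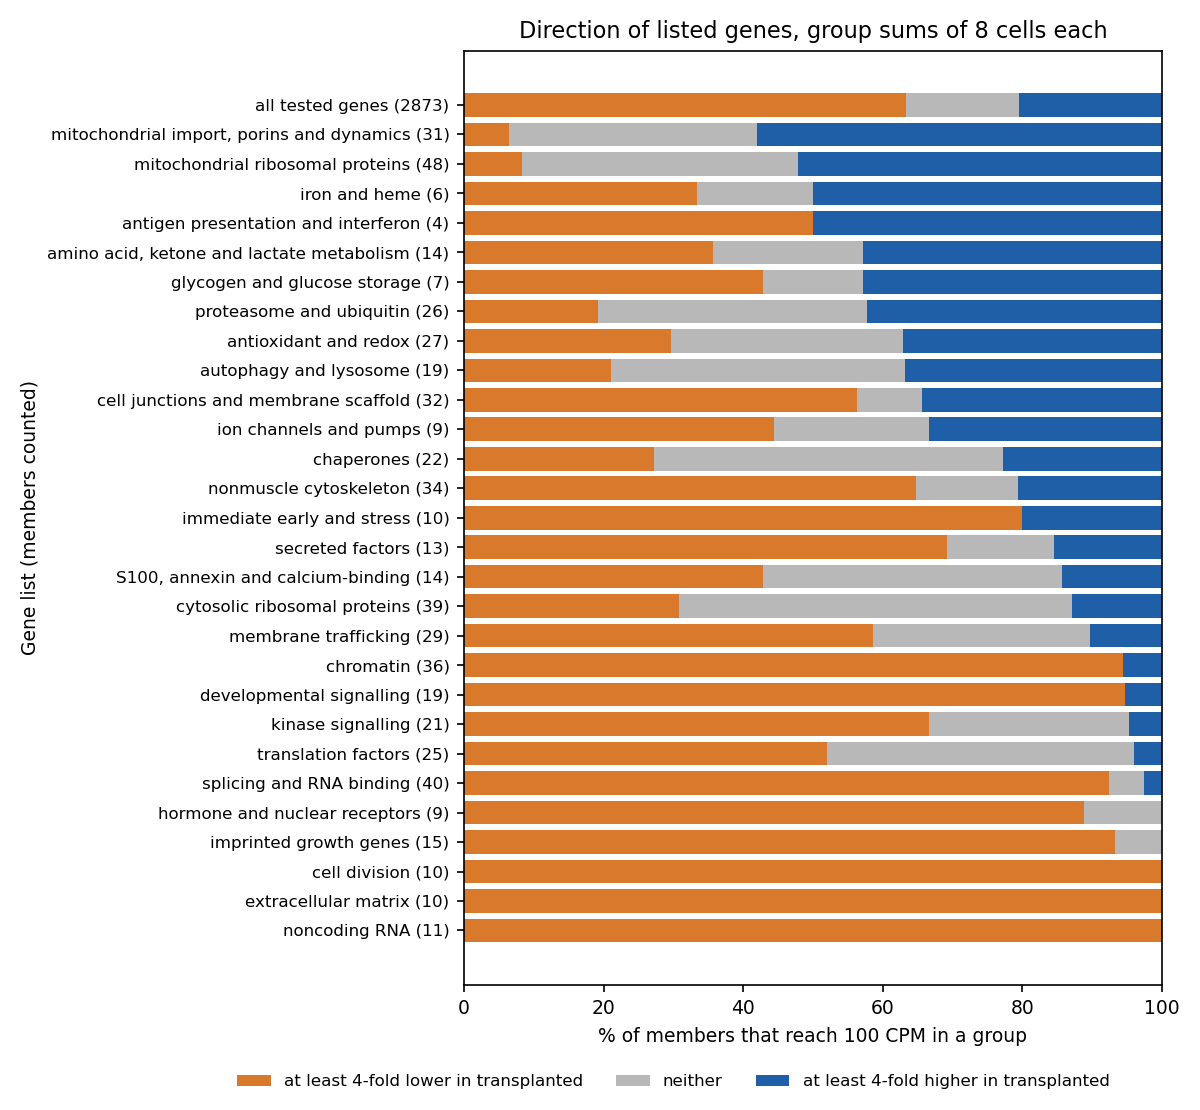
Share of list members (x, %) that were at least 4-fold lower (orange), neither (grey) or at least 4-fold higher (blue) in transplanted cells, for 28 gene lists (y, with the number of members that reach 100 CPM) and for all 2873 tested genes. The mitochondrial import and mitochondrial ribosomal lists have the longest blue bars among lists of over 6 members, at 58.1% and 52.1%, and no member of the extracellular matrix, cell division and noncoding RNA lists is blue.

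The 2 chains of ferritin, the iron store of the cell, differed in opposite directions. Fth1, the ferritin heavy chain with ferroxidase activity (chr19:9980598-9985098), had 1293, 820, 902, 1539, 1025, 3515, 467 and 2686 counts in transplanted cells A to H and 85, 0, 0, 0, 0, 19, 122 and 173 in cultured cells. Ftl1, the light chain that nucleates the iron core (chr7:45457944-45459884), had 0, 0, 0, 37, 0, 0, 61 and 21 counts in transplanted cells and 59, 7, 3, 0, 0, 92, 202 and 141 in cultured cells. Fth1 made up 99.0% (98.8 to 99.2) of the counts of both chains in transplanted cells, 44.2% (40.9 to 47.5) in cultured cells and 98.4% in adult cells. It led in all 8 transplanted cells, while Ftl1 led in 4 of the 6 cultured cells with counts. Fth1 was 4.86-fold higher (95% interval 4.4 to 5.38) and Ftl1 was 26.8-fold lower (95% interval 21.9 to 33). Without cultured cell H Fth1 was 7.58-fold higher, and without transplanted cell G Ftl1 was 50.7-fold lower. Without cultured cells F, G and H the values were 15.6-fold higher and 5.35-fold lower, and without B, C, D and E 1.999-fold higher and 63.8-fold lower. Ferritin genes have near copies in the genome, and reads may be placed on them. Cisd1, an iron-sulfur protein of the outer mitochondrial membrane, had 237, 86, 388, 582, 205, 279, 172 and 269 counts in transplanted cells and 83 in cultured cells, 71 of them in cell F, and was 4.23-fold higher (95% interval 3.4 to 5.33), or 26.6-fold higher without that cell and 2.01-fold without cultured cells B, C, D and E.

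Stress-protein and turnover lists were mixed, with single members far apart. Chaperones gave 5 higher and 6 lower of 22 (22.7% and 27.3%), against 22.4% and 60.2% of their length class. Their share of counts did not overlap between groups, at 0.776 to 1.19% of a transplanted and 0.260 to 0.717% of a cultured cell. Much of the transplanted share lay in Cryab, Hsp90ab1 and Hspb6, at 3452, 1994 and 1428 CPM, against 136, 432 and 0 CPM in cultured cells. The share without these members was not computed. Cryab, the small heat shock protein that guards desmin (chr9:50751325-50756636), had 362, 147, 580, 346, 611, 420, 183 and 1848 counts in transplanted cells A to H, 17 counts in cultured cell A and 11 in C. Its CPM ranges did not overlap and it was 25.4-fold higher (95% interval 17.6 to 38.3), or 58.5-fold without cultured cell A and 38.5-fold without C. Antioxidant genes gave 10 higher and 8 lower of 27 (37.0% and 29.6%), near the 39.1% and 37.1% of their length class. Without cultured cells F, G and H their length class had 48.7% and 31.2%, and the list 13 and 3 of 21. Without B, C, D and E the class had 26.8% and 48.4%, and the antioxidant genes gave 7 and 8 of 28. Among them Mgst3, a glutathione transferase of membranes, had 181, 326, 162, 279, 710, 419, 186 and 2068 counts in transplanted cells and 32 in cultured cells A, C and G, 21.4-fold higher (95% interval 15.1 to 31.4) without overlap of the cells, or 43.6-fold without cultured cell G. Prdx5, a mitochondrial peroxiredoxin, had 102, 0, 99, 173, 0, 62, 90 and 1591 counts and 14 in cultured cell G alone, 23.9-fold higher (95% interval 14.2 to 43.8). Without transplanted cell H Prdx5 was 8.08-fold higher, and without cultured cell G at least 99.4-fold higher.

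Proteasome and ubiquitin genes gave 11 higher and 5 lower of 26 (42.3% and 19.2%), against 39.1% and 37.1% of their length class, and autophagy and lysosome genes gave 7 and 4 of 19 (36.8% and 21.1%), against 22.4% and 60.2% of theirs. Without cultured cells F, G and H the lists gave 14 and 3 of 25, and 8 and 3 of 17. Without B, C, D and E they gave 12 and 7 of 28, and 6 higher and 7 lower of 22. In these settings the proteasome length class had 48.7% higher and 31.2% lower, and 26.8% and 48.4%. That of autophagy genes had 26.9% and 56.5%, and 19.2% and 62.6%. Psmb6, a catalytic proteasome subunit, was 3.29-fold higher (95% interval 2.52 to 4.37), or 11.4-fold higher without cultured cell F and 1.86-fold without transplanted cell H. Psmb6 was 8.55-fold higher without cultured cells F, G and H and without B, C, D and E 1.84-fold higher. Ube2d3, a ubiquitin-conjugating enzyme, was 6.8-fold lower (95% interval 5.75 to 8.05), with 194 counts in transplanted cell B, 80 in G and 0 in the others, against 30, 11, 4, 0, 5, 115, 26 and 104 in cultured cells. Without transplanted cell B Ube2d3 was 21.1-fold lower, and without cultured cells F, G and H 1.68-fold lower. Bnip3, a receptor of mitophagy, had like levels of 414 and 407 CPM, with 1, 151, 0, 40, 284, 0, 8 and 56 counts in transplanted and 26, 0, 5, 1, 2, 24, 24 and 2 in cultured cells. The Bnip3 ratio of 1.02 (0.807 to 1.30) became 0.568 without transplanted cell E, 1.72 without cultured cells F, G and H and 0.463 without B, C, D and E.

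Fuel-handling genes outside the oxidative list were mixed. Amino acid, ketone and lactate genes gave 6 higher and 5 lower of 14 (42.9% and 35.7%), and glycogen genes 3 and 3 of 7 (42.9% each), against 22.4% and 60.2% of the length class of both lists. Oxct1, which lets the heart burn ketone bodies (chr15:4026383-4155344), had 79, 263, 194, 144, 0, 291, 3 and 0 counts in transplanted cells A to H, 4 in cultured cell E and 9 in F. It was 11.9-fold higher (95% interval 6.9 to 22.3), or 35.1-fold without cultured cell F. Gyg, glycogenin, which primes glycogen (chr3:20122084-20155317), lay the other way, with 30, 56, 71, 43, 34, 0, 57 and 0 counts in cultured cells and 150 in transplanted cell G alone. Gyg was 12.3-fold lower (95% interval 10 to 15), and at least 566-fold lower without transplanted cell G. In adult cells Oxct1 stood at 293 CPM and Gyg at 290 CPM, beside 748 and 115 CPM in transplanted and 63.1 and 1411 CPM in cultured cells.

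Membrane and stress-response genes split by member. Mt1, metallothionein, had 45, 82, 296, 147, 134, 243, 0 and 166 counts in transplanted cells A to H and 13 in cultured cell G, 13.5-fold higher (95% interval 7.89 to 25.5), or at least 52.3-fold higher without that cell. Atf4, the factor of the integrated stress response, had 112 of its 122 cultured counts in cell H and 23 counts in transplanted cells, and was 33.5-fold lower (95% interval 21.3 to 54.9), or 3.11-fold lower without cultured cell H 356-fold without transplanted cell G, and 1.61-fold without cultured cells F, G and H. Slc8a1, the cardiac sodium-calcium exchanger (chr17:81373105-81738377), had 140, 46, 92 and 106 counts in cultured cells B, C, D and E and none in the other cultured cells, against 39 counts in transplanted cell G alone. It was 62.2-fold lower (95% interval 44.7 to 88.9), or at least 747-fold without transplanted cell G, and without cultured cells B to E the cultured group had no count against those 39. Trdn, triadin of the sarcoplasmic reticulum, had 69, 278, 0, 143, 0, 10, 155 and 0 counts in transplanted cells and 2 and 11 in cultured cells A and E, 7.97-fold higher (95% interval 4.63 to 15.1). Without cultured cell E Trdn was 47.8-fold higher, and without transplanted cell B 5.07-fold. Itgb1, the beta chain of most matrix receptors, had 3, 31, 0, 68, 6, 4, 12 and 0 counts in cultured cells and 10 and 1 in transplanted cells F and H. It was 71.2-fold lower (95% interval 38.5 to 146), or 693-fold without transplanted cell F and 37.2-fold without cultured cell D.

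RNA-processing and chromatin genes were lower nearly throughout. Of 40 splicing and RNA-binding genes, 37 were at least 4-fold lower and 1 higher (92.5% and 2.50%), against 76.9% and 10.5% of genes in their length class. Of 36 chromatin genes, 34 were lower and 2 higher (94.4%), against 86.7% lower in their class. The splicing list held 1.22 to 3.58% of the counts of a cultured cell and 0.00450 to 0.301% of those of a transplanted cell, and the chromatin list 0.746 to 2.34% and 0.000511 to 0.306%, so neither overlapped. Npm1, a nucleolar histone chaperone (chr11:33152287-33163206), had 36, 62, 24, 20, 7, 12, 21 and 69 counts across cultured cells A to H, against 13 in transplanted cell D and 36 in G. It was 32.4-fold lower (95% interval 23.8 to 44.9), or 113-fold lower without transplanted cell G. H3f3b, a replacement histone, had 28, 20, 5, 0, 0, 69, 94 and 184 counts in cultured cells and 24 in transplanted cells, and was 105-fold lower (95% interval 69.8 to 166), or 64.3-fold without cultured cell H and 333-fold without transplanted cell G.

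Ddx3x, an RNA helicase, had 26, 24, 0, 0, 0, 102, 6 and 134 counts across cultured cells A to H and 0 in transplanted cells, at least 615-fold lower, or at least 376-fold without cultured cell H. Rbm39, a splicing factor, had 249 counts in cultured cells, of which 9, 77, 0, 0, 7, 30, 19 and 107 lay in A to H, against 227 in transplanted cell H alone. It was 6.93-fold lower (95% interval 5.77 to 8.33), or at least 386-fold lower without transplanted cell H and 4.47-fold without cultured cell H. It was 3.78-fold lower, under the 4-fold rule, without cultured cells F, G and H. Qk, the quaking RNA-binding protein, had 69, 372, 41, 124, 10, 14, 0 and 0 counts in cultured cells, and 5 in transplanted cell A and 258 in B. It was 15.1-fold lower (95% interval 13.1 to 17.5), or 720-fold lower without transplanted cell B and 8.79-fold without cultured cell B. A few transplanted cells thus carried most of what remained of these genes. The splicing list had 31 lower and 0 higher of 36 without cultured cells F, G and H, and without B, C, D and E 28 and 1 of 31. For chromatin the counts were 29 and 2 of 32, and 18 and 0 of 21. In these settings 75.0% and 72.9% of genes in the splicing length class were lower, and 86.8% and 80.3% in the chromatin class. The chromatin counts thus lie near the shares of their class.

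**Figure D5:**
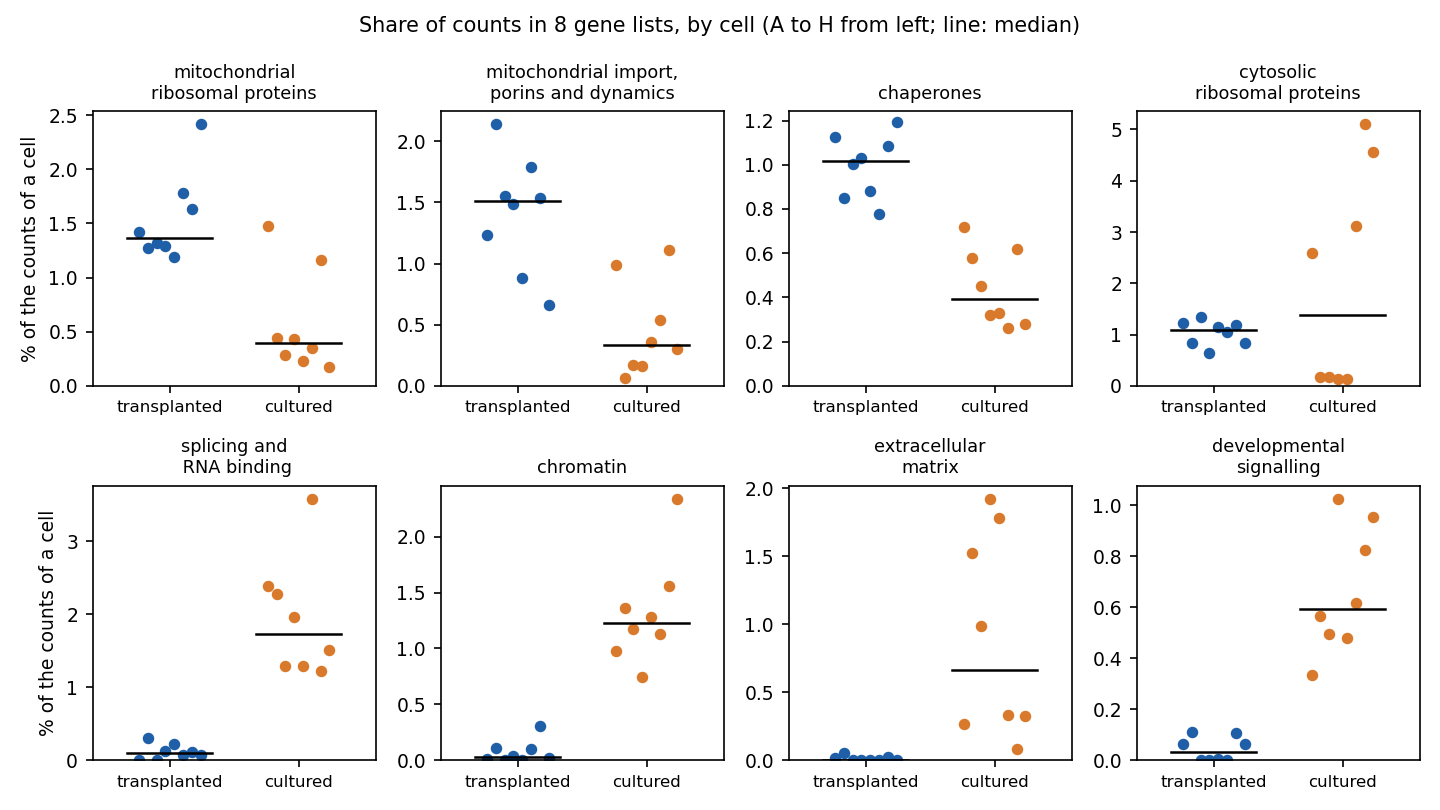
Share of a cell's counts (y, %) in 8 gene lists for 8 transplanted (blue) and 8 cultured (orange) cells, A to H from left to right, with the median as a line. Chaperone, splicing, chromatin, extracellular matrix and developmental signalling shares do not overlap between groups, while cytosolic ribosomal proteins range from 0.130 to 5.10% among cultured cells and overlap the 0.644 to 1.34% of transplanted cells.

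Matrix, imprinted and signalling genes had few counts in the transplanted group. All 10 extracellular matrix genes that reached 100 CPM were at least 4-fold lower, against 86.7% of their length class, as were 14 of 15 imprinted growth genes (93.3% against 76.9%) and 18 of 19 developmental signalling genes (94.7% against 76.9%). Without cultured cells F, G and H the lower genes of these lists were 9 of 9, 13 of 14 and 14 of 15, and without B, C, D and E 6 of 6, 12 of 12 and 16 of 18. In these settings 86.8% and 80.3% of genes in the matrix length class were lower, and 75.0% and 72.9% in that of the other lists. Vcan, the proteoglycan versican of the fetal heart (chr13:89655312-89742509), had 0, 710, 149, 516, 236, 0, 0 and 1 counts across cultured cells A to H and 0 in transplanted cells. It was at least 3395-fold lower, and since 1 count remained without cultured cells B to E, Vcan rests on those cells. Fn1, fibronectin (chr1:71585520-71653200), had 14, 26, 0, 0, 0, 21, 0 and 37 counts in cultured cells and 0 in transplanted cells, at least 206-fold lower. Fn1 is also among the fibroblast markers. Peg3, an imprinted zinc finger gene (chr7:6703892-6730431), had 0, 285, 2, 35, 3, 13, 0 and 0 counts in cultured cells and 0 in transplanted cells, at least 712-fold lower, or at least 158-fold without cultured cell B. Gnas, the stimulatory G protein subunit and the imprinted gene that was not called, had 58, 59, 2, 42, 0, 35, 15 and 86 counts in cultured and 16, 155, 141, 0, 11, 5, 0 and 206 in transplanted cells, 3.51-fold lower (95% interval 3.04 to 4.06), or 5.58-fold without cultured cells B, C, D and E.

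Bmpr1a, a bone morphogenetic protein receptor (chr14:34410734-34503341), had 4, 0, 7, 99, 5, 0, 40 and 0 counts across cultured cells A to H and 54 in transplanted cell G alone. It was 18.1-fold lower (95% interval 13.2 to 25.2), or 7.58-fold without cultured cell D and at least 301-fold without transplanted cell G. Tgfb2, a ligand of the same superfamily (chr1:186622792-186705989), had 76 counts in cultured cell D, 1 in F and 98 in H and 0 in transplanted cells, at least 369-fold lower. Without cultured cell H that bound was 183, and without D 241. Nuclear receptors and their cofactors gave 8 lower and 0 higher of 9 (88.9% lower), near the 86.7% lower of their length class, and kinase signalling genes 14 lower and 1 higher of 21 (66.7% and 4.76%), below the 76.9% lower of its length class. Ywhab, a 14-3-3 adaptor, had 20, 0, 8, 227, 20, 0, 12 and 16 counts in cultured cells and 101 in transplanted cell G alone, 19-fold lower (95% interval 15.1 to 24), or 5.50-fold without cultured cell D and at least 589-fold without transplanted cell G. Membrane trafficking genes gave 17 lower and 3 higher of 29 (58.6% and 10.3%), near the 60.2% lower of their class. Cell division genes were 10 lower of 10, against 76.9% lower in their length class, and they held 1.13% and 1.43% of the counts of cultured cells E and F and at most 0.499% of those of any other cell.

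Translation genes depended on which cultured cells were counted. Translation factors gave 13 lower and 1 higher of 25 (52.0% and 4.0%), against 60.2% and 22.4% of their length class, and cytosolic ribosomal proteins 12 lower and 5 higher of 39 (30.8% and 12.8%), against 28.0% and 44.3% of theirs. Without cultured cells F, G and H the ribosomal length class had 22.55% lower and 59.6% higher, and without B, C, D and E 41.4% and 25.4%. In the same settings ribosomal proteins gave 3 lower and 11 higher of 29, and 30 lower and 2 higher of 52. Their share of counts was 2.59, 0.168, 0.175, 0.140, 0.130, 3.12, 5.10 and 4.56% in cultured cells A to H, above or below every transplanted cell, whose range was 0.644 to 1.34%. Rack1, a scaffold of the small ribosomal subunit (chr11:48800332-48806434), had 32, 7, 4, 0, 0, 86, 35 and 10 counts in cultured cells and 68, 82 and 3 in transplanted cells A, B and D, 7.19-fold lower (95% interval 5.75 to 8.99). Without transplanted cell A Rack1 was 11.5-fold, without transplanted cell B 14.0-fold and without cultured cell F 3.99-fold lower. Rack1 was 2.59-fold lower without cultured cells F, G and H and without B, C, D and E 16.4-fold lower. Ribosomal proteins have many near copies, and reads may be placed on them.

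Junction genes gave 18 lower and 11 higher of 32 (56.2% and 34.4%), against 76.9% and 10.5% of their length class, with a median log2 ratio of -2.45. That median was 1.72 without cultured cell B and 2.32 without B, C, D and E.

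Genes with counts in every cell were few. Malat1, Rn45s and Uqcrh were the genes with counts in all 16 cells. The next count covered genes outside the contractile and oxidative lists and the classes dropped from the ranking, such as cytosolic ribosomal proteins. Of these, 9 genes reached 100 CPM in both groups with counts in at least 6 cells of each. Rps14, a cytosolic ribosomal protein, met these minimums but was not counted. It had 822 CPM in transplanted cells, with counts in 7 of them, and 2212 CPM in cultured cells, with counts in 6. Ywhae, a 14-3-3 adaptor, had 102, 104, 0, 30, 45, 75, 123 and 0 counts in transplanted cells A to H and 3, 60, 8, 1, 1, 7, 0 and 0 in cultured cells, a ratio of 0.948 (0.746 to 1.22), but 2.67 without cultured cell B, 0.711 without F, G and H and 3.12 without B, C, D and E. Ybx1, an RNA-binding protein, had 0, 10, 130, 102, 76, 43, 36 and 184 counts in transplanted and 29, 0, 1, 0, 2, 15, 32 and 43 in cultured cells, a ratio of 0.754 (0.619 to 0.924), which was 1.97 without cultured cells F, G and H and 0.318 without B, C, D and E. Ghitm, an inner mitochondrial membrane protein, was 3-fold higher (95% interval 2.3 to 4), or 1.57-fold higher without transplanted cell D, and Hsp90ab1, a cytosolic chaperone, was 4.62-fold higher (95% interval 3.74 to 5.77). Hsp90ab1 was 8.04-fold higher without cultured cells F, G and H and 2.73-fold, under the 4-fold rule, without B, C, D and E. Malat1, a nuclear noncoding RNA (chr19:5795690-5802672), had 275, 886, 95, 846, 140, 180, 63 and 42 counts in cultured and 44, 11, 1, 117, 10, 101, 229 and 10 in transplanted cells, 30.5-fold lower (95% interval 27.8 to 33.6), or 50.1-fold without transplanted cell G. The 9 ratios ran in both directions, and per-cell CPM overlapped between groups for each gene named here.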

How the data were processed

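Libraries of single cells were compared, 8 transplanted and 8 cultured. Per the submitters' processing notes, TopHat2 2.1.0, HTSeq, DESeq2 and build mm10 were used; the notes give no step to each tool, and the annotation, the strand setting and the choice of the 9595 genes were not given in them. The authors deposited whole-number read counts per gene, without molecular identifiers, and 0 columns belonged to no sample. Counts were summed over the 8 cells of a group and divided by the group's total to give CPM. No test was made, since the labels name no animal or culture. Genes with at least 100 CPM in a group were called at 4-fold, with a floor of 3 counts for a group at 0 and a pseudocount of 1 CPM for medians. Intervals are exact at 95%, Poisson for levels, conditional binomial for ratios and Clopper-Pearson for shares. A per-gene share or ratio from PCR reads carries more error than these intervals hold. The calling step was tested on simulated group sums with counting error alone, so that test says nothing of the spread between cells.

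Genes named are the 15 with the highest and the 15 with the lowest ratio outside the contractile and oxidative lists, with counts in at least 6 cells and at least 4-fold with equal cell weights; the 3 most abundant members of each list; both members of measurable pairs; and the 10 genes with ratios closest to 1 among those with at least 100 CPM in both groups and counts in at least 6 cells of each. The last rule passed over the contractile and oxidative lists and the same gene classes as the ranking, cytosolic ribosomal proteins among them. Only 9 genes then qualified for it, so all of them entered, whatever their ratio. Genes were matched to GENCODE M21 on GRCm38, 9343 by symbol and 180 by an older name, and 72 had no match. Members and lists were chosen with earlier results of these data known. Alternatives were TMM (edgeR 4.0.16) and median-of-ratios factors (DESeq2 1.42.0) in R 4.3.3, other minimums, thinning and leaving out cells; other steps used Python 3.11.15 with pandas 2.3.3 and scipy 1.17.1. Doublets were not checked. No pair of cells agreed within sampling noise, with a lowest chi-square per degree of freedom of 54.55 in transplanted and 13.6 in cultured cells. Mitochondrially encoded, reporter and erythrocyte genes were not analysed here. A few genes and pairs that enter the counts are not reported here by name.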

Additional observations from a re-analysis of the deposited data

Results flagged for a closer look

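Of 88 groups of values looked at, 16 had a cell far from the other 7, in each case the highest. The cutoff flags about 1 in 20 only for normally distributed values. Levels and shares of single cells are skewed, so no comparison with chance can be drawn. Total counts were 344224 in transplanted cell H, against 88796 to 195749 in the others, and 60789 in cultured cell B, against 16099 to 27885.

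Among gene lists, chromatin genes held 0.306% of the counts of transplanted cell G and at most 0.113% of the others, and extracellular matrix genes 0.0539% of transplanted cell B and at most 0.0220% of the others. Cultured cell H stood above the other cultured cells in S100, annexin and calcium-binding genes (1.04%, others up to 0.424%), antigen presentation and interferon genes (0.712%, others up to 0.265%) and immediate early and stress genes (1.38%, others up to 0.257%). Immediate early and stress genes held 0.534% of transplanted cell C, against 0.0549 to 0.179% of the others. Secreted factors held 1.09% of transplanted cell F, against 0.157 to 0.574% of the others.

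Among ranked genes, the cell with the highest level stood apart for 7. Aimp1 reached 2635 CPM and Mlf1 4448 CPM in transplanted cell C, Ptgds 8695 CPM in transplanted cell F and Stk16 1364 CPM in transplanted cell E. Tuba4a, whose exons overlap those of Stk16, also had its highest level in that cell, 10774 CPM. Dmxl1 reached 1721 CPM in cultured cell G, Ncor1 4145 CPM in cultured cell H and Wsb1 4796 CPM in cultured cell A. The next highest cells had 990 CPM of Aimp1, 1672 of Mlf1, 3555 of Ptgds, 279 of Stk16, 808 of Dmxl1, 1727 of Ncor1 and 1353 of Wsb1.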

How the results depend on the processing

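The number of higher genes was 207 with a minimum of 500 CPM and 369 at 10-fold. The number of lower genes was 1205 with TMM factors, 2979 with a minimum of 10 counts over both groups and 244 with 500 CPM. The median log2 ratio of all genes was -3.03 with TMM factors, -3.43 with median-of-ratios factors, -6.76 without Rn45s, Rpph1 and Ttn in the totals, -5.90 with equal cell weights, -5.63 with 10 counts, -1.02 with 500 CPM and -5.27 without cultured cells B, C, D and E. The minimums change which genes are counted; the cause of the other shifts was not tested. TMM moved the ratio scale, as the log2 ratio of the scaled group totals, by 0.762 and median-of-ratios factors by 0.66; medians moved by other amounts. Leaving out 1 cell at a time gave 570 to 634 higher genes, 1677 to 1873 lower genes, medians of -6.75 to -6.03 and 13 to 18 pairs with a larger muscle-form share in transplanted cells.

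Of 17 list medians of at least 4-fold, 2 changed sign. That of junction genes was 1.80 with 500 CPM, 2.32 without cultured cells B, C, D and E and, leaving out 1 cell at a time, from -3.29 to 1.72, the latter without cultured cell B. That of immediate early genes was 3.60 without cultured cells F, G and H and, leaving out 1 cell at a time, from -7.31 to 3.56, the latter without cultured cell H. Of 11 list medians under 4-fold, 8 changed sign under some setting. None of the 30 ranked ratios changed direction under the settings run. They were picked for extreme ratios, and most have no count in 1 group, so they had little or no room to change. No paired analysis was possible because the letters only name cells. The shallowest cell had 16099 counts, so a cultured cell at 0 counts bounds a gene loosely.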
